A study of Mus musculus with 16 samples.

Results

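The Fc and Toll-like receptors examined here are 10 genes by which a phagocyte recognises antibody-coated or microbial particles. They were taken by symbol from both count tables, which pair 49326 of 49585 Ensembl gene identifiers with a symbol through the GENCODE M21 names. All 10 of 10 were found, and all 10 passed the filter on low counts in each of the 6 comparisons made. They comprise the activating Fcγ receptors Fcgr3 and Fcgr4, the inhibitory Fcγ receptor Fcgr2b, the shared signalling chain Fcer1g, the Toll-like receptors Tlr2, Tlr4 and Tlr13, the lipopolysaccharide co-receptor Cd14, the adaptor Myd88 and the C-type lectin Clec4d.

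The RNA came from FACS-sorted neutrophils, with bones as the source tissue, of C57BL/6 mice aged 8 to 12 weeks. Neutrophils are the short-lived phagocytes that bone marrow produces in large numbers. Of the 4 groups, P2KO is labelled Vav:cre-PHD2f/f, a conditional deletion of PHD2, and P2WT is the wild type set beside it. P2H2KO is labelled Vav:cre-PHD2/HIF2ff/ff, in which HIF2α is deleted along with PHD2, and P2H2WT is its own wild type. Vav:cre acts in blood-forming cells and so in all white blood cell lineages, not in neutrophils alone, and whether the wild types carry Cre or floxed alleles is not given in the sources used here. PHD2 (gene Egln1) is the oxygen-dependent enzyme that marks hypoxia-inducible factors for degradation, and HIF2α (gene Epas1) is one of those factors. Each group held 4 libraries with replicate numbers 1, 5, 6 and 9 (P2KO), 3, 4, 7 and 10 (P2WT), 11, 12, 15 and 17 (P2H2KO), and 13, 14, 16 and 18 (P2H2WT), and nothing states how many mice stand behind a library, so p-values measure the spread between these libraries.

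Fcγ receptors bind the constant part of immunoglobulin G. In the mouse the activating receptors have no signalling motif of their own and depend on the γ chain made from Fcer1g for both surface display and signalling through the kinase Syk, whereas Fcgr2b carries an inhibitory motif and restrains them. Toll-like receptors recognise microbial molecules: Tlr2 bacterial lipopeptides, Tlr4 (with Cd14 and the protein encoded by Ly96) lipopolysaccharide, and Tlr13 a stretch of bacterial ribosomal RNA within endosomes. Each of these 3 receptors signals through Myd88. Clec4d is a glycolipid-binding lectin of myeloid cells that also works with the γ chain.

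Because the mouse lines alter the hypoxia-inducible factors, the promoters of the members were read for the core of the hypoxia response element (ACGTG or GCGTG) and, as a motif of the myeloid factor PU.1, for GAGGAA, each on both strands. The windows ran from 250 bases before to 50 bases after the RefSeq transcription start (GRCm38.p6), and 8 of the 10 members had one. GCGTG lay in the windows of Fcgr3 and Fcer1g, ACGTG in none of the 8, and GAGGAA in those of Fcgr3, Fcgr4, Tlr13 and Clec4d. Thus 2 of 8 members held a form of the hypoxia response element core, beside 46.73% of the 27025 genes of the table, and 4 of 8 held GAGGAA, beside 31.25%. Stretches of Fcgr3, Fcgr4, Fcer1g and Tlr13 are shown, written 5′ to 3′ on the gene's own strand, with the motifs in capitals (TTCCTC is GAGGAA on the opposite strand). Clec4d, with GAGGAA at positions -240, 8 and 40 from its start, is not shown. The 2 RefSeq starts of Fcgr3 place its GCGTG 121 or 130 bases upstream, and in Fcer1g it begins 12 bases upstream of the RefSeq start. GENCODE M21 starts both genes farther upstream. Its Fcer1g starts at 171234365, so that the GCGTG lies in the last 16 bases of the stretch, which are exon there. Its Fcgr3 starts at 171064935, so that the whole stretch lies inside that gene, outside its exons.
Fcgr3, chr1:171059404-171059553, minus strand: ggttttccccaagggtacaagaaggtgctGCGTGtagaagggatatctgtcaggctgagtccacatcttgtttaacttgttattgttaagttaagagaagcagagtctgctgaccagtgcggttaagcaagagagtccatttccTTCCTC
Fcgr4, chr1:171018776-171018925, plus strand: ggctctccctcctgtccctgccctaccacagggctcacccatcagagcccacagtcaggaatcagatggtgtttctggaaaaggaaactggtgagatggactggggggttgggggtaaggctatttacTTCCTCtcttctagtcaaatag
Fcer1g, chr1:171234350-171234499, minus strand: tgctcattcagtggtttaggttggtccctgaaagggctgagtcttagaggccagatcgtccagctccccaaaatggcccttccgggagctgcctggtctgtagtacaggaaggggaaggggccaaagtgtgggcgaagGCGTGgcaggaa
Tlr13, chrX:106143125-106143233, plus strand: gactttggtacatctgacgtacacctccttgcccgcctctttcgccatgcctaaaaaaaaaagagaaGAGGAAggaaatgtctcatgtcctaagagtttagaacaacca

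A match to a short motif describes the letters and is not evidence of binding, and no chromatin or binding data were analysed here.

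The 4 Fc receptor genes lie together on chromosome 1 of GRCm38 (mm10), within the GENCODE M21 spans chr1:170958617-170976547 (Fcgr2b, minus strand), chr1:171018920-171029761 (Fcgr4, plus strand), chr1:171051174-171064935 (Fcgr3, minus strand) and chr1:171229572-171234365 (Fcer1g, minus strand). All are protein-coding, and reads were counted over their exons. Transcripts of Fcgr2b and Fcgr3 are 96.289% identical over 512 bases, in which reads could have been split between the genes or dropped. Fcgr2b also shares 155 exon bases with the antisense gene Gm38204, and Myd88 (chr9:119335934-119341411, minus strand) shares 290 with Acaa1a on the opposite strand. The use of strand in counting is not given in the sources used here, so reads there cannot be assigned with certainty. Tlr2 lies at chr3:83836272-83841767 on the minus strand, Tlr4 at chr4:66827584-66930284 and Clec4d at chr6:123262111-123275265 on the plus strand. Tlr13 (chrX:106143204-106160493, plus strand) is X-linked, as are Tlr7 and Tlr8.

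Per library, 23450746 to 28601284 reads were counted and 19611 to 20439 genes were detected. Within groups, the 24 pairs of libraries correlated at r = 0.9769 to 0.993 and differed by more than counting noise, so none was a duplicate. The libraries contained neutrophil RNA, with none of the 12 neutrophil markers (Ly6g, S100a8 and others) at 0 in any library and a summed level of 31007 to 81114 CPM (counts scaled to a common library size). RNA of other cells was present too: the 8 erythroid markers summed to 23752 to 48965 CPM, the 15 monocyte and macrophage markers to 2108 to 3866 CPM and the 9 eosinophil, basophil and mast cell markers to 2517 to 5447 CPM. The 9 B cell markers summed to 374 to 970 CPM and the 9 dendritic cell markers to 783 to 1417 CPM. No marker on these lists was at 0 in any library. Erythroid markers summed to more than the neutrophil markers in P2KO replicates 5 and 9, P2WT replicate 4 and P2H2WT replicate 14. The part of B cell and dendritic cell RNA in the members' levels was not tested. Several members are also made by monocytes and macrophages, so that a level here is a level in the sorted sample, and in a bulk sample fewer cells of a type and less RNA per cell cannot be told apart. Whole-gene counts did not show the deletions: Egln1 spanned 43.2 to 58.3 CPM in P2KO against 45.9 to 51.3 in P2WT, and 49.1 to 58.8 in P2H2KO against 47.8 to 54.5 in P2H2WT, while Epas1 spanned 3.42 to 8.38 CPM in P2H2KO against 2.55 to 4.97 in P2H2WT. A deletion of part of a gene can leave its count in place, so the genotypes given throughout are those on the labels. The suffix of the titles, f in 6 libraries and m in 10, went with the sex-linked transcripts Xist and Ddx3y in every library.

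The γ chain transcript was the most abundant member for its length. Per kilobase of exon, Fcer1g reached 296 ± 70.6 CPM per kb (SD, n = 16 libraries), and Fcgr3, the activating receptor it serves, 132 ± 28.6. Each exceeded the next gene in 16 of 16 libraries. A middle set followed, with Myd88 at 33.2 ± 5.77, Tlr13 at 33.0 ± 7.10, Fcgr4 at 29.2 ± 7.72, Clec4d at 28.9 ± 10.1 and Tlr2 at 24.5 ± 8.13 CPM per kb. The order inside this set did not hold across libraries: Myd88 exceeded Tlr13 in 7 of 16, Tlr13 exceeded Fcgr4 in 14, and Fcgr4 exceeded Clec4d, and Clec4d exceeded Tlr2, in 10 each. Fcgr2b, the inhibitory receptor, was lower at 13.7 ± 1.76, below Tlr2 and above Tlr4 in 16 of 16 libraries. Tlr4 (6.74 ± 1.38) and Cd14 (6.07 ± 1.71) closed the order, with Tlr4 ahead of Cd14 in 10 libraries.

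**Figure D1:**
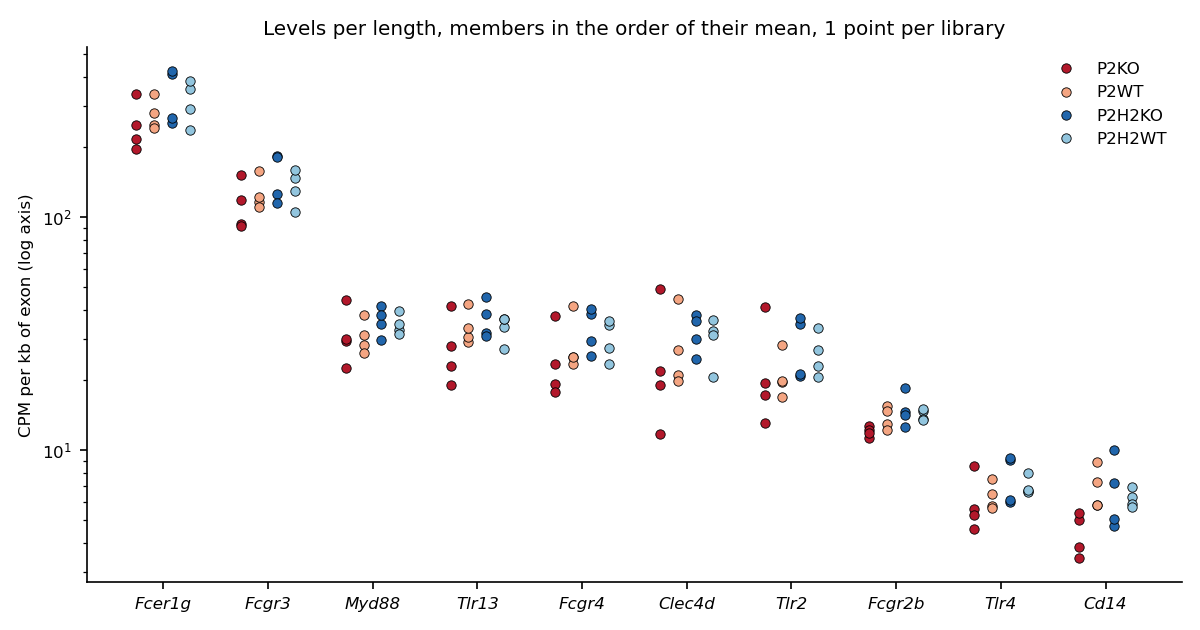
Level of each member per kilobase of exon (CPM per kb, log axis) in each of the 16 libraries, coloured by group, with members ordered by their mean. Fcer1g and Fcgr3 stand above the rest in every library, 5 members overlap between 24.5 and 33.2 on average, and Tlr4 and Cd14 are lowest.

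No member passed an adjusted p of 0.05 (edgeR's quasi-likelihood test with Benjamini-Hochberg adjustment over all genes tested) in any of the 6 comparisons as fitted here. Few genes of any kind did. Between P2KO and P2WT, 6 of 13734 genes passed (0.0437%), and between P2H2KO and P2H2WT 10 of 13435 (0.0744%). The difference between these genotype effects, fitted over all 16 libraries, had 0 of 14080 (0%) under that threshold, and 212 (1.51%) had an unadjusted p under 0.05. In the mean genotype effect over both lines 24 genes passed (0.17%), between the wild types 32 (0.227%) and between title suffixes 23 (0.163%). The sections that follow therefore give the members' levels and the size of change that the libraries leave room for.

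Among the activating receptors, Fcgr3 (ENSMUSG00000059498) stood at 159, 162, 206 and 265 CPM in P2KO. The P2WT libraries held 191, 201, 211 and 274 CPM. In the double-deleted line it stood at 199.5, 218, 314 and 317 CPM in P2H2KO and at 183, 225, 257 and 276 CPM in P2H2WT. The groups overlapped in both lines, and the spread inside each group was wider than the gap between its mean and that of its control. The fitted log2 fold change was -0.14 (SE 0.19, 95% interval -0.56 to 0.28) without PHD2 and 0.15 (SE 0.18, interval -0.25 to 0.56) without PHD2 and HIF2α, with adjusted p of 1 and 0.9999. Fcgr4, which binds IgG2 subclasses, gave 22.2, 24.1, 29.4 and 47.4 CPM in P2KO against 29.3, 31.4, 31.4 and 52.3 CPM in P2WT. It gave 31.9, 37.0, 48.2 and 50.5 CPM in P2H2KO against 29.5, 34.3, 43.1 and 45.2 CPM in P2H2WT. One library led each P2 group, P2KO replicate 6 and P2WT replicate 10, and the same libraries led for Fcgr3. Fitted, the P2 line gave a log2 fold change of -0.22 (SE 0.27) and the P2H2 line one of 0.14 (SE 0.18).

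The γ chain followed the same libraries. Fcer1g stood at 172, 189.6, 218 and 296 CPM in P2KO, at 211, 216, 244 and 297 CPM in P2WT, at 222, 233, 359 and 369.5 CPM in P2H2KO and at 207, 256, 310.5 and 337 CPM in P2H2WT. Its groups overlapped in each line, with log2 fold changes of -0.13 (SE 0.18, interval -0.55 to 0.28) and 0.09 (SE 0.21, interval -0.38 to 0.56).

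Relative to its mean, the inhibitory receptor varied less between libraries than the activating ones. Fcgr2b stood at 65.3, 68.3, 70.7 and 73.2 CPM in P2KO and at 70.5, 75.1, 85.03 and 89.2 CPM in P2WT, so that 2 P2KO libraries reached into the P2WT range. In the other line it gave 72.4, 82.0, 84.1 and 106 CPM in P2H2KO and 77.9, 78.3, 85.2 and 86.6 CPM in P2H2WT, where the P2H2KO libraries spanned the whole control range. Its log2 fold change between P2KO and P2WT was -0.19 (SE 0.085), with an unadjusted p of 0.04844 and an adjusted p of 1 in edgeR's quasi-likelihood test. Between P2H2KO and P2H2WT it was 0.07 (SE 0.11, adjusted p = 0.9999), and the difference of the 2 effects was -0.28 (SE 0.14, unadjusted p = 0.07367, adjusted p = 0.9995). The part of the 512 similar bases in these Fcgr2b values was not tested.

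**Figure D2:**
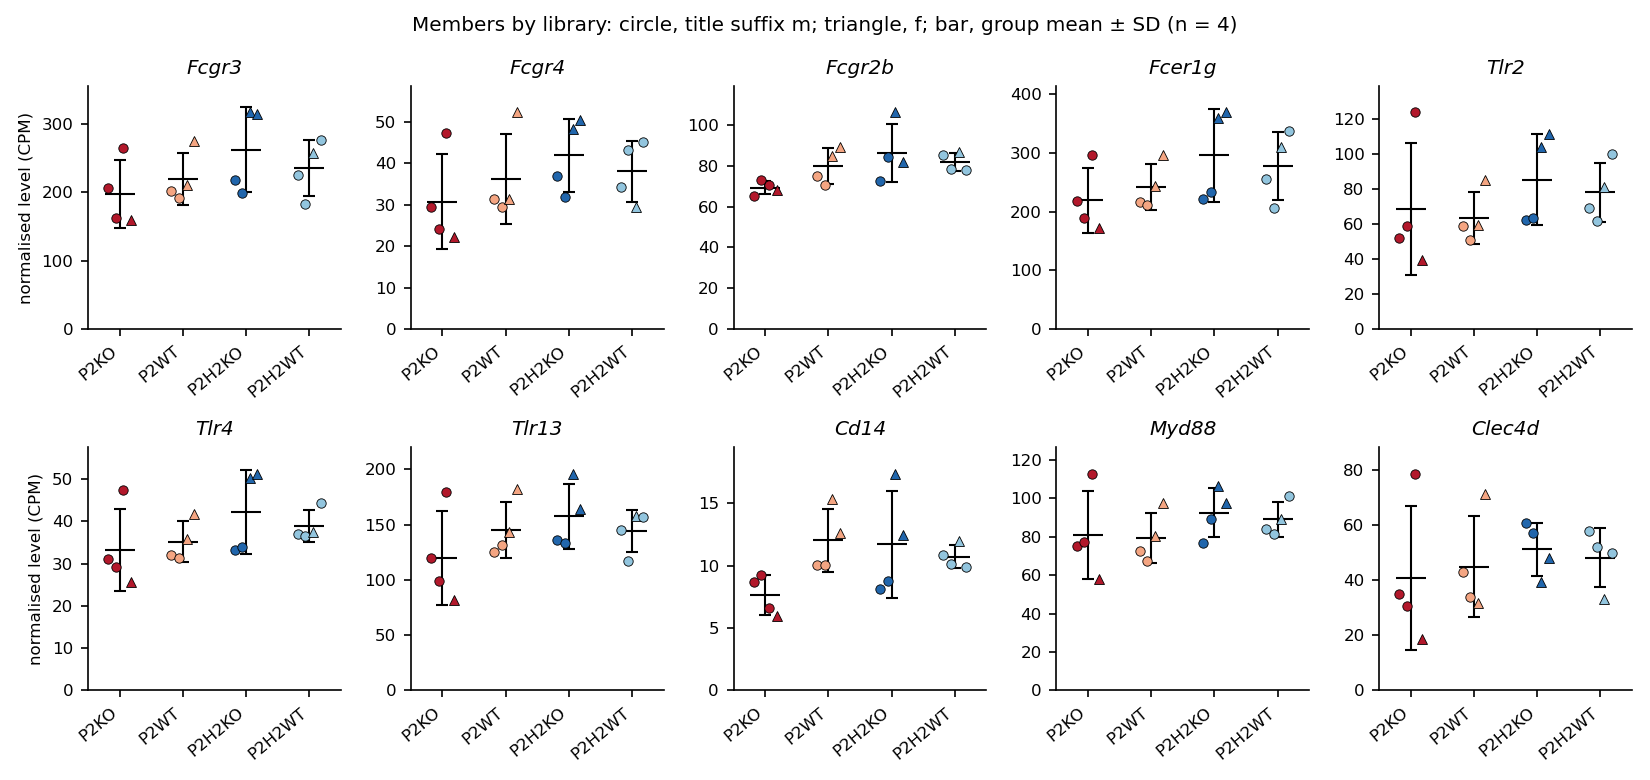
Level of each member in CPM (axis from 0) in the 16 libraries, grouped by P2KO, P2WT, P2H2KO and P2H2WT, with circles for title suffix m, triangles for f and bars for the group mean ± SD (n = 4). The groups overlap for each member except Cd14 between P2KO and P2WT, where the highest P2KO library (9.28) lies under the lowest P2WT library (10.02).

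Of the Toll-like receptors, Tlr2 had the widest spread in P2KO relative to its mean, and 1 library set it. Tlr2 stood at 39.3, 52.1, 58.7 and 124 CPM in P2KO against 51.1, 58.8, 59.6 and 85.1 CPM in P2WT, and at 62.4, 63.7, 104 and 112 CPM in P2H2KO against 61.8, 69.2, 81.2 and 100.3 CPM in P2H2WT. The log2 fold change of 0.12 (SE 0.34) in the P2 line became -0.34 without P2KO replicate 6, the library at 124 CPM. In the P2H2 line it was 0.13 (SE 0.22). Tlr4 stood at 25.6, 29.2, 31.0 and 47.4 CPM in P2KO, at 31.2, 32.0, 35.9 and 41.8 CPM in P2WT, at 33.3, 34.0, 50.4 and 51.3 CPM in P2H2KO and 36.6, 37.1, 37.6 and 44.4 CPM in P2H2WT. Within P2H2KO its libraries formed a low pair (replicates 11 and 12) and a high pair (15 and 17), with every P2H2WT library between them. The low pair has title suffix m and the high pair f. The pairs also differed in the mean log2 level of the neutrophil markers, 10.58 and 10.36 against 10.96 and 11.21. The parts of suffix and marker level in this split were not tested. Over all 16 libraries, with the groups in the model, Tlr4 differed between f and m by 0.15 (SE 0.14, adjusted p = 0.5867 by edgeR). The fitted change was -0.07 (SE 0.19) in the P2 line on the log2 scale and 0.12 (SE 0.15) in the P2H2 line.

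Tlr13, the ribosomal RNA sensor, had the highest mean per kilobase of the 3 Toll-like receptors. It stood at 81.9, 98.9, 120.1 and 179.5 CPM in P2KO, at 125, 132, 143 and 182 CPM in P2WT, at 133, 137, 165 and 196 CPM in P2H2KO and 117, 145, 157 and 158 CPM in P2H2WT. In the P2 line 3 of 4 P2KO libraries lay under every P2WT library, and replicate 6 lay near the top of the P2WT range. The log2 fold change was -0.26 (SE 0.23, interval -0.79 to 0.27) there and 0.13 (SE 0.14, interval -0.19 to 0.45) in the P2H2 line. Without P2KO replicate 6 the first value was -0.52, and with the neutrophil marker level as a covariate it was -0.24 (SE 0.074, unadjusted p = 0.009677, adjusted p = 0.7984). Being X-linked, Tlr13 was also compared between title suffixes within groups, where the f libraries exceeded the m libraries by 0.13 on the log2 scale (SE 0.16, adjusted p = 0.6795).

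Cd14 was the one member whose P2KO and P2WT libraries did not overlap. Cd14 (chr18:36725067-36726798, minus strand, GRCm38) hands lipopolysaccharide to the Tlr4 complex and is abundant in monocytes. It stood at 5.95, 6.64, 8.68 and 9.28 CPM in P2KO and at 10.02, 10.02, 12.6 and 15.4 CPM in P2WT, from 155 to 389 reads per library. Non-overlap in this direction was found for 191 of 13734 genes (1.39%) and in the opposite direction for 118 (0.859%). Its log2 fold change was -0.64 (SE 0.18, interval -1.06 to -0.23), with an unadjusted p of 0.006817 and an adjusted p of 1 by edgeR. Across the 8 fits that each left out 1 library it ranged from -0.75 to -0.50, and its smallest adjusted p was 0.4062.

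In the double-deleted line Cd14 did not repeat this position. It stood at 8.13, 8.78, 12.5 and 17.4 CPM in P2H2KO and at 9.89, 10.1, 10.9 and 12.0 CPM in P2H2WT, so that P2H2KO libraries lay on both sides of the controls. The log2 fold change was 0.13 (SE 0.22, adjusted p = 0.9999) and became -0.13 without P2H2KO replicate 15, the library at 17.4 CPM. The difference of the 2 genotype effects was -0.78 (SE 0.31, interval -1.44 to -0.12), with an unadjusted p of 0.02408 and an adjusted p of 0.9995 by edgeR. The mean of the 2 effects was -0.26 (SE 0.16, adjusted p = 0.9998).

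Monocyte and macrophage markers, like Cd14, were mostly lower in P2KO than in P2WT. Of the 15 markers, 14 were lower in P2KO than in P2WT and 1 was higher (median log2 fold change -0.29), and their summed level, 2108 to 2533 CPM in P2KO, did not overlap the 2632 to 3198 CPM of P2WT. None of the 15 was at 0 in any library. Other marker lists went both ways between P2KO and P2WT. T and NK cell markers were lower for 9 of 10 (median -0.22) and dendritic cell markers for 8 of 9 (median -0.14). B cell markers were higher for 7 of 9 and erythroid markers for 8 of 8. Over the 16 libraries the log2 level of Cd14 correlated with the mean log2 level of these markers at Pearson r = 0.554 (permutation p = 0.026, adjusted over 20 relations 0.057) and Spearman rho = 0.659 (permutation p = 0.0071, adjusted 0.016). The r was 0.498 without the 2 libraries farthest from the median marker level, 0.832 within the 8 libraries of the P2 line and 0.361 within those of the P2H2 line. The mean log2 level of the markers was 6.05 to 6.20 in P2KO and 6.29 to 6.49 in P2WT, so that as a covariate it nearly stands for the genotype and cannot be told apart from it. Cd14 then differed by -0.11, with the SE widening from 0.18 to 0.38. In the P2H2 line these markers were also mostly lower in the deleted group, 11 of 14 tested (median -0.32), beside 0.13 for Cd14. Mean levels of Csf1r (394 CPM in P2H2KO against 361 in P2H2WT), Ccr2 (560 against 518) and F13a1 (988 against 966) were higher there. Those of Vcam1 (189 against 274 CPM), C1qc (56.2 against 79.8) and Mrc1 (81.9 against 111) were lower, so the list did not move as a unit. The part of monocyte or macrophage RNA in the Cd14 values was not tested.

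**Figure D3:**
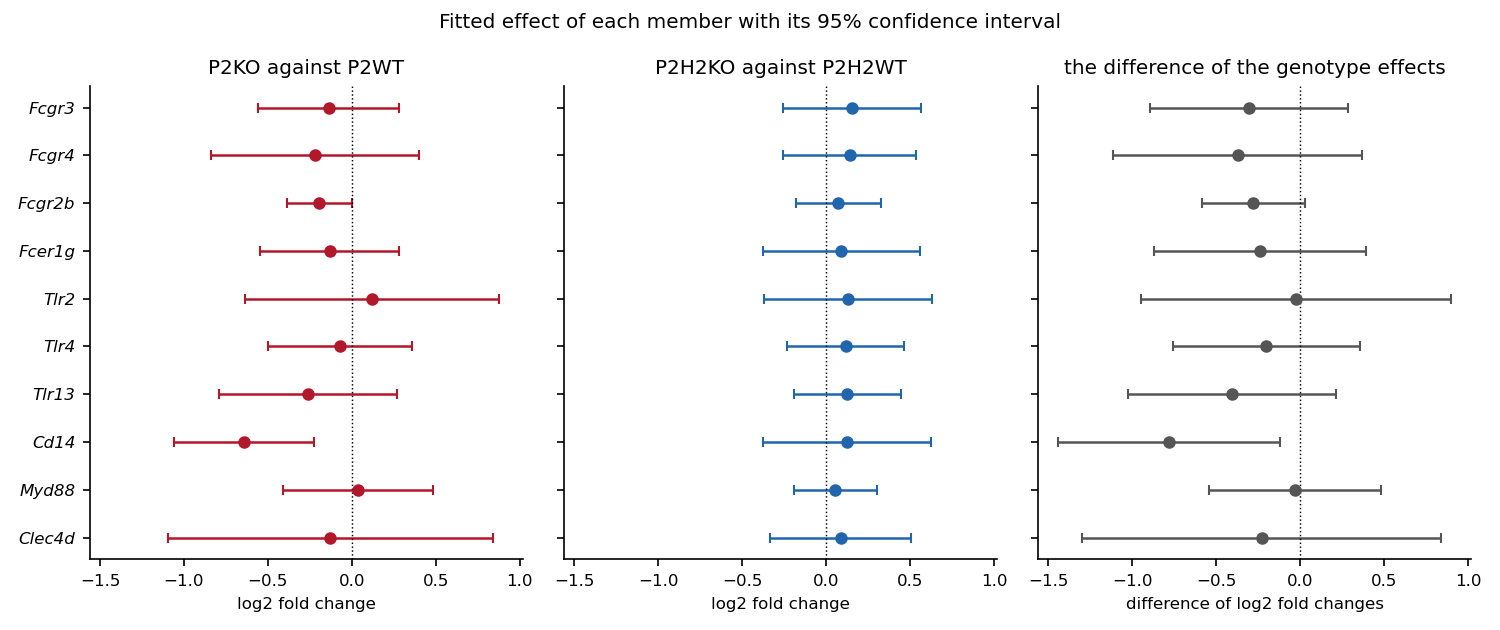
Fitted log2 fold change of each member with its 95% confidence interval for P2KO against P2WT, for P2H2KO against P2H2WT, and for the difference of these effects. In the P2 line the intervals of Cd14 and Fcgr2b lie below 0, in the P2H2 line all 10 intervals cross 0, and in the difference only that of Cd14 lies below 0, before any adjustment for the number of genes.

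Myd88, the adaptor downstream of all 3 Toll-like receptors among the members, showed no separation of groups. It stood at 58.0, 75.5, 77.4 and 113 CPM in P2KO, at 67.5, 72.9, 80.3 and 97.4 CPM in P2WT, at 76.8, 89.1, 97.9 and 107 CPM in P2H2KO and 81.3, 84.1, 89.5 and 101 CPM in P2H2WT. The log2 fold changes were 0.04 (SE 0.20, interval -0.41 to 0.48) and 0.06 (SE 0.11, interval -0.19 to 0.30), and the interval of the P2 line corresponds to 0.752-fold to 1.40-fold.

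Clec4d, the lectin, had the largest relative spread in the P2 line. It stood at 18.8, 30.5, 35.0 and 78.6 CPM in P2KO and at 31.7, 33.7, 43.0 and 71.1 CPM in P2WT, with replicates 6 and 10 again at the top of their groups. In the P2H2 line it stood at 39.2, 47.8, 57.1 and 60.5 CPM in P2H2KO and at 33.0, 49.8, 52.0 and 57.8 CPM in P2H2WT. Here the order of libraries differed from that of the other members: replicates 15 and 17, highest for Fcgr3, Fcer1g, Tlr2 and Tlr4 in P2H2KO, were the lowest for Clec4d. The 4 libraries numbered 11 to 14 in this line, of both genotypes, all lay at or above 52.0 CPM. The 4 numbered 15 to 18 all lay at or below 49.8 CPM, a split seen after the values were known. It nearly follows the title suffix, since 11 to 14 are all m, 15, 16 and 17 are f, and 18 is m. The f libraries of this line lay at or below 47.8 CPM and the m libraries at or above 49.8 CPM. Over all 16 libraries, with the groups in the model, Clec4d differed between f and m by -0.41 (SE 0.28, adjusted p = 0.4488 by edgeR). Number and suffix were not tested against each other. The log2 fold changes were -0.13 (SE 0.43, interval -1.10 to 0.84) and 0.09 (SE 0.19, interval -0.33 to 0.51).

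Read as a group, most members lay lower in the libraries labelled as without PHD2 than in their controls, and all lay higher in those labelled as without PHD2 and HIF2α, though none passed the test. Between P2KO and P2WT, 8 of 10 had a negative and 2 (Tlr2 and Myd88) a positive log2 fold change, with a median of -0.14 beside 0.02 over all genes tested, of which 42.2% were negative. Cd14 and Fcgr2b had an unadjusted p under 0.05, 2 of 10 members beside 3.49% of all genes. Fcgr2b did not keep this with the suffix as a covariate (-0.15, unadjusted p = 0.103), in a single fit of all 16 libraries (unadjusted p = 0.064) or without P2KO replicate 1 or 9 or P2WT replicate 7 or 10 (unadjusted p of 0.0795 to 0.1435). Between P2H2KO and P2H2WT, 10 of 10 were positive, between 0.06 and 0.15, with a median of 0.12 beside 0.00 over all genes, and 0 of 10 had an unadjusted p under 0.05 beside 2.63% of all genes. None of the 10 had groups that did not overlap in this line, beside 0.811% of genes lower and 0.901% higher. The difference of the effects was negative for 10 of 10 (median -0.26), with Cd14 alone under an unadjusted p of 0.05, and the mean over both lines had 0 of 10 beside 3.72% of genes.

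These directions rested on few libraries. The median of the members between P2KO and P2WT was -0.33 without P2KO replicate 6 and 0.01 without P2WT replicate 10. Between P2H2KO and P2H2WT it was 0.02 without P2H2KO replicate 15. In that line the 12 neutrophil markers were all higher in the deleted group too (median log2 fold change 0.19), and with their mean level as a covariate the median of the members was 0.00 (-0.00298). The same covariate left the median of the P2 line at -0.10. The suffix as a covariate gave medians of -0.14 (P2 line) and 0.01 (P2H2 line). The monocyte and macrophage marker level gave -0.37 and 0.46. In the P2H2 line 4 members then passed the adjusted threshold, beside 1608 of all 13435 genes in that fit. That marker level was 5.97 to 6.26 in P2H2KO and 6.22 to 6.48 in P2H2WT. These ranges overlap only at their ends, so that the covariate partly stands for the genotype. It also averages markers that moved in both directions in this line. The 10 members share libraries and vary together, so that 10 of 10 in 1 direction is not 10 separate observations.

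For 7 members, libraries with more neutrophil marker RNA also held more of the member. The mean log2 CPM of the 12 markers lay lowest in P2KO replicates 9 and 5 and highest in P2H2KO replicate 17, P2KO replicate 6, P2H2WT replicate 18, P2H2KO replicate 15 and P2WT replicate 10. Over the 16 libraries it correlated with Tlr4 at Pearson r = 0.930, Tlr2 at 0.921, Fcgr3 at 0.919, Fcgr4 at 0.917, Fcer1g at 0.880, Tlr13 at 0.870 and Myd88 at 0.867. The adjusted permutation p of these 7 lay at 4e-05 for 5 of them and at 5.7e-05 for Fcer1g and Myd88, where 1e-05 is the smallest unadjusted p that 100000 permutations can give. Their Spearman rho ran from 0.812 (Tlr13 and Myd88) to 0.900 (Tlr2). Leaving out the 2 libraries farthest from the median marker level left r between 0.839 (Myd88) and 0.916 (Fcgr3). Since 5 libraries stand above a gap in the marker level (10.58 to 10.91), r was also taken within the 11 libraries below it, where it was lower, from 0.635 (Myd88) to 0.815 (Tlr13). Levels of genes from the same libraries share depth, scaling and cell makeup, and the part of each in these correlations was not tested.

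Clec4d followed the neutrophil markers in the P2 line but had no such relation in the P2H2 line. Its r was 0.723 over the 16 libraries (permutation p = 0.0016, adjusted 0.0041; rho = 0.676, adjusted permutation p = 0.013) and 0.710 without the 2 outer libraries. Within the P2 line it was 0.963 (exact permutation p = 0.0001736) and within the P2H2 line -0.193 (exact permutation p = 0.6492). The other 7 that tracked the markers kept r of at least 0.722 in each line. The difference between these correlations was not tested.

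Fcgr2b and Cd14 had the lowest correlations with the neutrophil markers over the 16 libraries. Over the 16 libraries r was 0.383 for Fcgr2b (permutation p = 0.14, adjusted 0.29) and 0.286 for Cd14 (permutation p = 0.28, adjusted 0.43), with rho of 0.321 and 0.218. Without the 2 outer libraries r was 0.579 and 0.522, so that the low values rest in part on those libraries. Within the P2 line r was 0.244 for Fcgr2b (exact permutation p = 0.5781) and 0.0398 for Cd14 (exact permutation p = 0.9244), and within the P2H2 line 0.226 (exact permutation p = 0.6274) and 0.514 (exact permutation p = 0.1957). With the monocyte and macrophage markers Fcgr2b had r = 0.344 over the 16 libraries (permutation p = 0.19, adjusted 0.35) and 0.781 within the P2 line (exact permutation p = 0.02111, unadjusted).

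**Figure D4:**
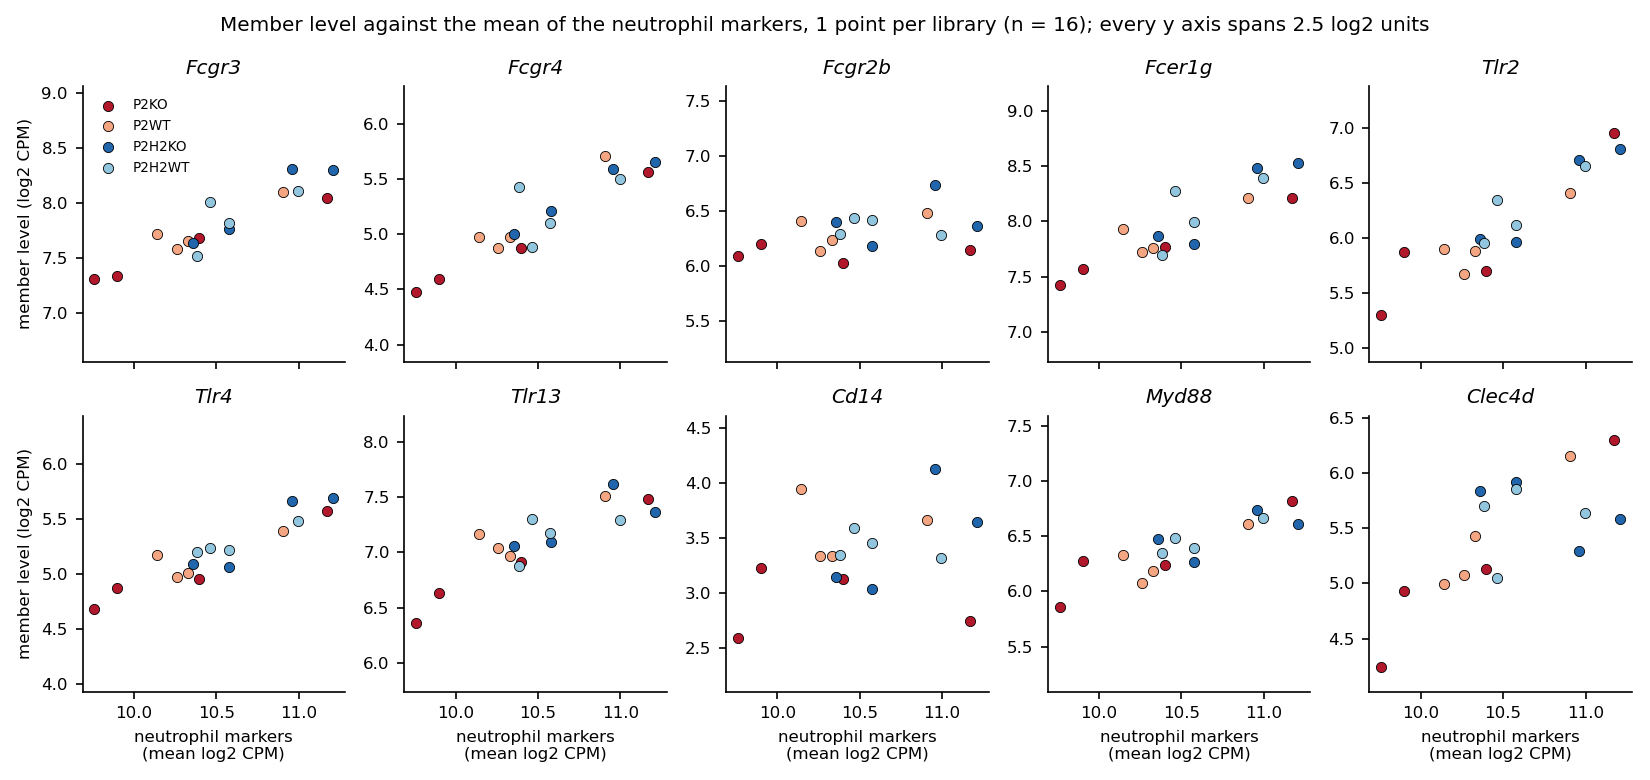
Log2 CPM of each member (y axis, spanning 2.5 log2 units in each panel) against the mean log2 CPM of the 12 neutrophil markers (x axis), 1 point per library coloured by group. Fcgr3, Fcgr4, Fcer1g and the Toll-like receptors lie higher with the markers in both lines, Fcgr2b and Cd14 scatter more widely, and the P2H2 libraries of Clec4d lie flat.

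Pairs of members repeated this division. Among the 45 pairs the correlation of log2 CPM over the 16 libraries ran from 0.04 to 0.979 with a median of 0.757. The closest pair was Fcgr3 and Fcer1g, receptor and signalling chain (r = 0.979), and Tlr2 with Myd88 (0.957) and Tlr2 with Tlr4 (0.956) came close to it. Cd14 was closest to Fcgr2b (0.820) and farthest from Clec4d (0.041). After each group's mean was subtracted, Fcgr3 and Fcer1g still stood at 0.978, and the lowest pair was Cd14 with Clec4d at -0.227. These values are descriptions over libraries that share their cell makeup.

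Among 9801 genes with a mean of at least 5 CPM outside the members, the profile most like that of Fcer1g over the 16 libraries was Tyrobp (r = 0.989), which encodes the other ITAM-bearing adaptor of myeloid cells, with Tnfaip8l2 (0.989) and Capg (0.988) next. For Fcgr3 the nearest were Unc119 (0.986), Chst12 (0.983) and Rsu1 (0.983), and after subtraction of group means Cyba (0.990), a subunit of the phagocyte oxidase. Fcgr4 lay nearest Hdc (0.936), Retnlg (0.935) and Dgat1 (0.934), of which Retnlg is on the neutrophil marker list, and Tlr13 nearest Nlrp3 (0.966), the inflammasome sensor, Cept1 (0.966) and Slc2a6 (0.963). Tlr2 was most like Ugp2 (0.984), Actb (0.981) and Zbtb7b (0.978), Tlr4 like Pdcl3 (0.981), Nxn (0.978) and Ppp1r18 (0.977), and Myd88 like Zbtb7b (0.971), Tmem50b (0.966) and Preb (0.964). The remaining 3 had looser neighbours: Cd14 had Gbp3 (0.925), Elovl5 (0.889) and Fam174a (0.881), Fcgr2b had Smim24 (0.911), 2610001J05Rik (0.903) and Fam174a (0.902), and Clec4d had H2-Q10 (0.914), Vnn3 (0.903) and Cd300ld (0.902). Fam174a stood near both Cd14 and Fcgr2b.

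In the wider pathway, 0 genes of 6 lists passed the adjusted threshold in any of the 6 comparisons. Among relatives of the Fc receptors (8 of 9 genes tested), 5 were lower in P2KO than in P2WT (median log2 fold change -0.11) and 7 lower in P2H2KO than in P2H2WT (median -0.20). Fcgrt, which encodes the neonatal Fc receptor, averaged 37.7 ± 4.91 CPM in P2KO against 45.9 ± 3.72 in P2WT (SD, n = 4), and 36.1 ± 7.85 in P2H2KO and 42.4 ± 3.43 in P2H2WT, with log2 fold changes of -0.27 (SE 0.10) and -0.23 (SE 0.14). Fcrla, a B cell relative of the Fc receptors and the most abundant gene of the list, averaged 59.1 ± 18.5 CPM in P2KO against 53.3 ± 15.2 in P2WT, and 50.3 ± 17.9 in P2H2KO against 58.5 ± 21.3 in P2H2WT, with log2 fold changes of 0.16 (SE 0.24) and -0.22 (SE 0.31). Fcgr1, the high-affinity Fcγ receptor and a gene of monocytes and macrophages, which was chosen after its values were seen, averaged 19.9 ± 2.89 CPM in P2KO and 29.1 ± 6.03 in P2WT (SD, n = 4). It differed by -0.54 on the log2 scale (SE 0.16), with an unadjusted p of 0.008764 and an adjusted p of 1 by edgeR. In P2H2KO Fcgr1 differed from P2H2WT by -0.19 (SE 0.30). The 16 genes of Fc receptor signalling lay close to 0, with medians of -0.02 and 0.06, and their most abundant members, the kinase Syk (-0.08 and -0.02) and the phosphatase Ptpn6 (0.04 and 0.01), had values of that size.

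The other Toll-like receptors, 9 of 9 tested, were lower in P2KO for 7 (median -0.21) and higher in P2H2KO for 6 (median 0.03). Tlr7, an endosomal sensor of single-stranded RNA, averaged 38.3 ± 3.19 CPM in P2KO and 51.1 ± 8.17 in P2WT (SD, n = 4). Its groups narrowly missed overlap, with the highest P2KO library at 42.22 CPM and the lowest P2WT library at 42.46. Non-overlap in this direction was found for 191 of 13734 genes (1.39%), and Unc93b1 below is another. Its log2 fold change was -0.40 (SE 0.12, unadjusted p = 0.007946, adjusted p = 1 by edgeR), and in the P2H2 line it was -0.10 (SE 0.098). Tlr8 followed with -0.34 (SE 0.19) and 0.03 (SE 0.17). Of the accessory proteins (9 of 10 tested, medians -0.06 and -0.01), Unc93b1, which carries the endosomal receptors to their compartment, had -0.26 (SE 0.076, unadjusted p = 0.008062, adjusted p = 1 by edgeR) without overlap in the P2 line and 0.09 (SE 0.19) in the other. The chaperone gene Hsp90b1 had 0.00 and -0.05. Summed monocyte and macrophage markers did not overlap between these P2 groups either, as given above, and their part in the Tlr7 and Unc93b1 values was not tested.

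Adaptors and kinases below the Toll-like receptors, 24 of 25 tested, centred on 0 in the P2 line (median -0.01, 14 lower) and on 0.04 in the P2H2 line (7 lower). Tab2 (-0.01 and 0.01) and Nfkb1 (-0.05 and 0.05) were the most abundant. The 14 C-type lectins and ITAM adaptors were lower in P2KO for 12 (median -0.14) and higher in P2H2KO for 10 (median 0.04), among them Tyrobp (-0.16, SE 0.19, and 0.05, SE 0.19) and the inhibitory lectin Clec12a (-0.07 and 0.10).

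**Figure D5:**
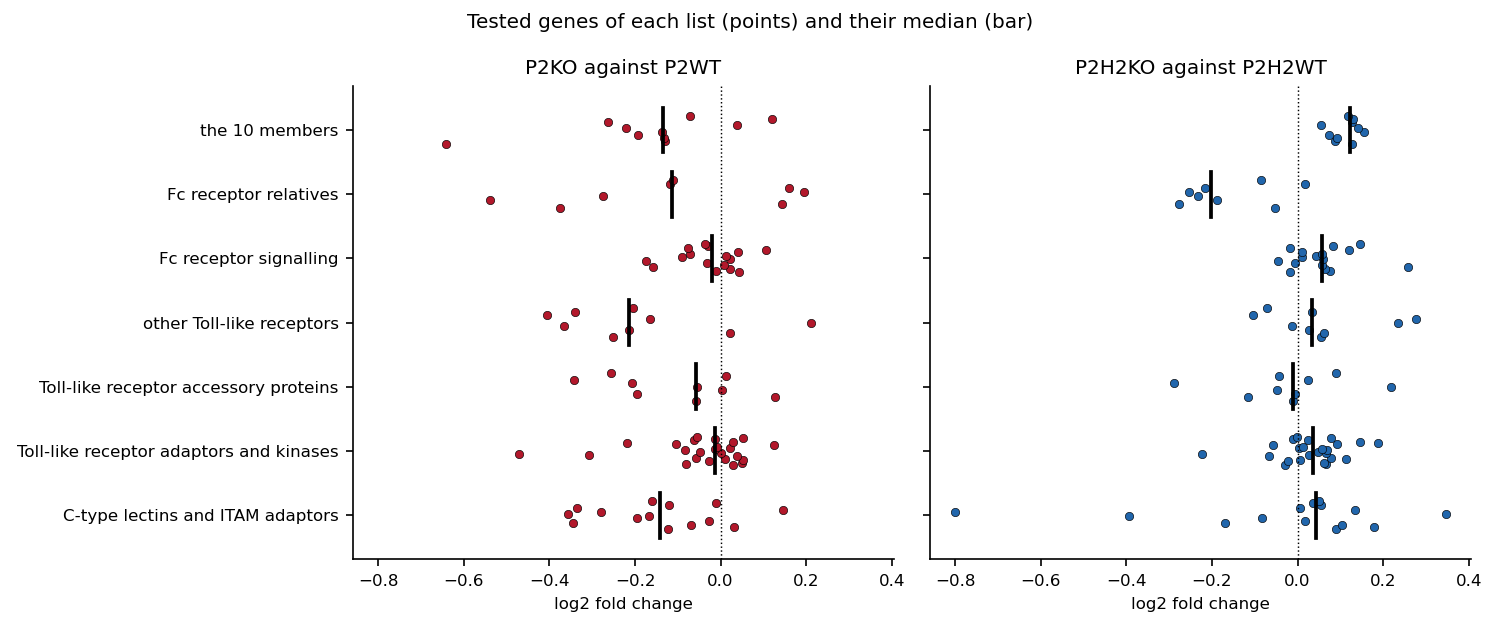
Log2 fold changes of the tested genes of each list (points) with the list's median (bar), for P2KO against P2WT and P2H2KO against P2H2WT. The 10 members span -0.64 to 0.12 for P2KO against P2WT but 0.06 to 0.15 for P2H2KO against P2H2WT, and the signalling and adaptor lists centre near 0 in both.

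The wild types of the lines were compared as a gauge of line, table and any unlabelled batch, which cannot be told apart. For the members, P2WT differed from P2H2WT by log2 fold changes between -0.30 (Tlr2, SE 0.31) and 0.16 (Cd14, SE 0.22), with adjusted p of at least 0.8557 by edgeR. Between title suffixes, with the groups in the model, Fcgr2b was higher in f libraries by 0.17 (SE 0.066, unadjusted p = 0.0233, adjusted p = 0.2238) and Cd14 by 0.35 (SE 0.15, unadjusted p = 0.03596, adjusted p = 0.2574). An unadjusted p under 0.05 was common in this comparison, with 1192 of 14080 genes higher and 1267 lower in f libraries. Of the members, 9 of 10 were higher in f, with a median of 0.16 beside 0.01 over all genes. The suffix counts differ between the groups of a line (P2KO 1 f of 4, P2WT 2 of 4, P2H2KO 2 of 4, P2H2WT 1 of 4). With the suffix as a covariate, Cd14 between P2KO and P2WT was -0.60 (SE 0.21, unadjusted p = 0.01944, adjusted p = 0.9999), and the difference of the genotype effects was -0.54 (SE 0.29, unadjusted p = 0.08861).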

How the data were processed

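The authors deposited 2 tables of raw read counts per Ensembl gene, 1 per line with 8 libraries each, as whole numbers without normalization. HTSeq and mm10 are named in the submitters' processing notes, and the aligner, annotation release and strand setting are not given in the sources used here. Group, replicate number and suffix came from the titles and descriptions. The 259 identifiers without a symbol stayed in the tests.

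From the deposited counts, genes were filtered with filterByExpr, scaled by TMM and tested with glmQLFit (robust) and glmQLFTest of edgeR 4.0.16, with Benjamini-Hochberg adjustment over all genes tested and a threshold of 0.05. Standard errors came from the F statistic, and intervals are 95%. Each line was fitted on its own 8 libraries, the other comparisons on all 16. CPM values divide each count by its TMM-adjusted library total, in the usual unit, and log2 CPM used a prior count of 2; both were computed here from the deposited counts. The procedure was tested on simulated data.

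Members and gene lists were chosen with earlier results of these data known. Named genes were the members, any list gene past the threshold or else the 2 most abundant per list, and the 3 genes most like each member. Fcgr1 was added after its values were seen. Alternatives were RLE and upper-quartile factors, other filters, DESeq2 1.42.0, the suffix as a covariate, 1 fit of all libraries, leaving out each library and, added after seeing the data, 2 marker levels as covariates. Similar transcripts were found with blastn 2.17.0, and promoter sequences are from RefSeq (GRCm38.p6).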

Additional observations from a re-analysis of the deposited data

Results flagged for a closer look

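Of the 40 groups of 4 libraries (10 members in 4 groups), 2 held a library far from the other 3. Dixon's 95% critical value for the gap over the range marks about 1 group in 20 by chance, and 2 of 40 is no more than that share. The members share their libraries and vary together, so that the 40 groups are not independent. Fcgr4 in P2WT replicate 10 stood at 52.3 CPM, with the other P2WT libraries between 29.3 and 31.4 (gap over range 0.9125). Tlr4 in P2H2WT replicate 18 stood at 44.4 CPM, with the others between 36.6 and 37.6 (0.8737). Both libraries were also the highest of their group in the neutrophil markers, at a summed 61184 and 68897 CPM, and the part of that in the values was not tested.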

How the results depend on the processing

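No member passed the adjusted threshold under other scaling, other filters, DESeq2, the suffix as a covariate or a single fit of all libraries, in any comparison in which these were run. With the monocyte and macrophage marker level as a covariate, 4 members passed between P2H2KO and P2H2WT (Fcgr3, Fcer1g, Tlr2 and Tlr13, log2 0.46 to 0.73, adjusted p 0.02252 to 0.04715 by edgeR), with 1608 of 13435 genes passing and a median of the members of 0.46. Without P2KO replicate 9, Cd14 passed between title suffixes (log2 0.54, adjusted p = 0.03737 by edgeR), the number of members called over the 16 fits running from 0 to 1 and that of all genes from 17 to 1066. The cause of these changes was not tested.

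Directions of uncalled members turned in few settings, listed as log2 values. Between P2KO and P2WT, the monocyte and macrophage level gave Fcgr2b 0.013, Tlr2 -0.65 and Myd88 -0.22. Between P2H2KO and P2H2WT, the suffix gave Fcer1g -0.065, Tlr2 -0.042 and Cd14 -0.062, the neutrophil level gave Fcer1g -0.080, Tlr2 -0.075, Tlr4 -0.022, Cd14 -0.0067 and Myd88 -0.0061, and the monocyte and macrophage level gave Clec4d -0.32. In the difference of the effects, Tlr2 and Myd88 became 0.12 and 0.018 with the suffix, 0.18 and 0.081 with the neutrophil level, and 0.063 and 0.00054 with the monocyte and macrophage level. Over all settings other than leaving out a library, 87 of 90 values in the P2 line, 77 of 90 in the P2H2 line and 74 of 80 for the difference kept direction and side of the threshold.

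Leaving out 1 library at a time turned 9 of 80 values in the P2 line, with ranges of -0.51 to 0.020 (Fcgr4), -0.34 to 0.31 (Tlr2), -0.29 to 0.032 (Tlr4), -0.17 to 0.16 (Myd88) and -0.67 to 0.19 (Clec4d). The low ends came without P2KO replicate 6. In the P2H2 line it turned 9 of 80, with ranges of -0.041 to 0.15 (Fcgr2b), -0.031 to 0.21 (Fcer1g), -0.022 to 0.27 (Tlr2), -0.13 to 0.26 (Cd14), -0.016 to 0.13 (Myd88) and -0.055 to 0.20 (Clec4d). For the difference it turned 14 of 160, with ranges of -0.48 to 0.17 (Tlr2), -0.23 to 0.10 (Myd88) and -0.76 to 0.084 (Clec4d). No paired analysis was possible because the groups compared share no replicate number. Cd14 had the fewest reads (155 to 484 per library). Its SE between P2KO and P2WT was 0.184, beside 0.185 for Fcgr3 and 0.183 for Fcer1g. The SEs of the members there ran from 0.085 (Fcgr2b) to 0.43 (Clec4d). What limited the precision of each member was not tested.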
